A study of Oryza sativa with 4 samples.

Results

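Untreated seedlings of the indica rice cultivar 93-11 were set against untreated seedlings of the japonica cultivar Nipponbare, 1 RNA-seq library each, to describe how the transcripts of these cultivars differed before any chilling. A gene was a member of the comparison when it had at least 1 RPKM (a read count corrected for gene length and library size) in either library, and 20213 of the 55985 listed genes were members. The 93-11 untreated library and the Nipponbare untreated library were each made from the pooled aerial parts of 15-day-old seedlings, raised in flooded soil in a warm greenhouse (28 °C days, 25 °C nights). The series also holds 93-11 chilled and Nipponbare chilled libraries, from seedlings of the same age held at 4 °C for 33 h. No library has a replicate, no genotype beyond the cultivar name is given, and a transcript present in fewer cells cannot be told apart from less transcript per cell in such pools.

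Rice was domesticated as japonica and indica, subspecies whose genomes differ by many sequence changes, insertions and deletions, and japonica cultivars are in general the more chilling tolerant. Nipponbare is the cultivar of the rice reference genome, and the gene identifiers in the files are of the style used by its annotation. Differences between warm-grown cultivars form the baseline on which a response to cold is measured, since a gene can differ between chilled cultivars either because it already differed or because it responded differently. Abscisic acid, dehydrins, heat shock proteins and antioxidant enzymes belong to the stress responses of the rice shoot, while aquaporins carry water across its membranes and diterpenoid phytoalexins protect it against pathogens.

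Library totals, recovered from the RPKM values, were 16682882 reads for 93-11 untreated and 12671333 for Nipponbare untreated, and 30127 and 29242 genes were above 0 in them, in that order. The chilled libraries held 13012799 reads for 93-11 and 13482486 for Nipponbare. The 3 green leaf markers RCA, CAB2R and CAB1R summed to 25777 RPKM in 93-11 untreated and 22442 RPKM in Nipponbare untreated. The 4 root markers summed to 10.5 and 9.93 RPKM, with LSI2 at 0 in Nipponbare, and the shoot meristem markers OSH1 and OSH15 summed to 0.0368 and 0.0855 RPKM, with OSH1 at 0 in 93-11. The part of tissue composition in the results below was not tested. The reference genes ACT1, EF1A and GAPC had log2 ratios of 0.06, -0.30 and 0.13.

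The levels of most genes in the untreated libraries lay within 2-fold of each other. The log2 ratio of 93-11 over Nipponbare had a median of -0.02 over all members and quartiles of -0.45 and 0.30, and 79.2% of members lay within that limit. A gene was called different where the whole 95% counting interval of its ratio lay beyond 2-fold. By this rule 779 members (3.85%) were higher and 1700 (8.41%) lower in 93-11, so 12.3% of members were called in either direction. These counts compare 2 libraries, not the cultivars, because the interval covers counting error only. Ratios were large on both sides: 354 of the higher and 1045 of the lower genes had intervals beyond 4-fold, and 99 and 462 beyond 16-fold. The median log2 ratio was 3.01 over the higher genes and -4.39 over the lower ones, or 2.68 and -3.42 with a library at 0 set to 3 reads. Part of the excess on the lower side was made of genes with no reads. Of the lower genes, 572 had 0 reads in 93-11 untreated, the deeper library, and 481 of these had 0 in 93-11 chilled as well. Of the higher genes, 197 had 0 reads in Nipponbare untreated, of which 162 had 0 in Nipponbare chilled too. The sources used here do not give the genome to which 93-11 reads were mapped, and its part in this excess was not tested.

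**Figure D1:**
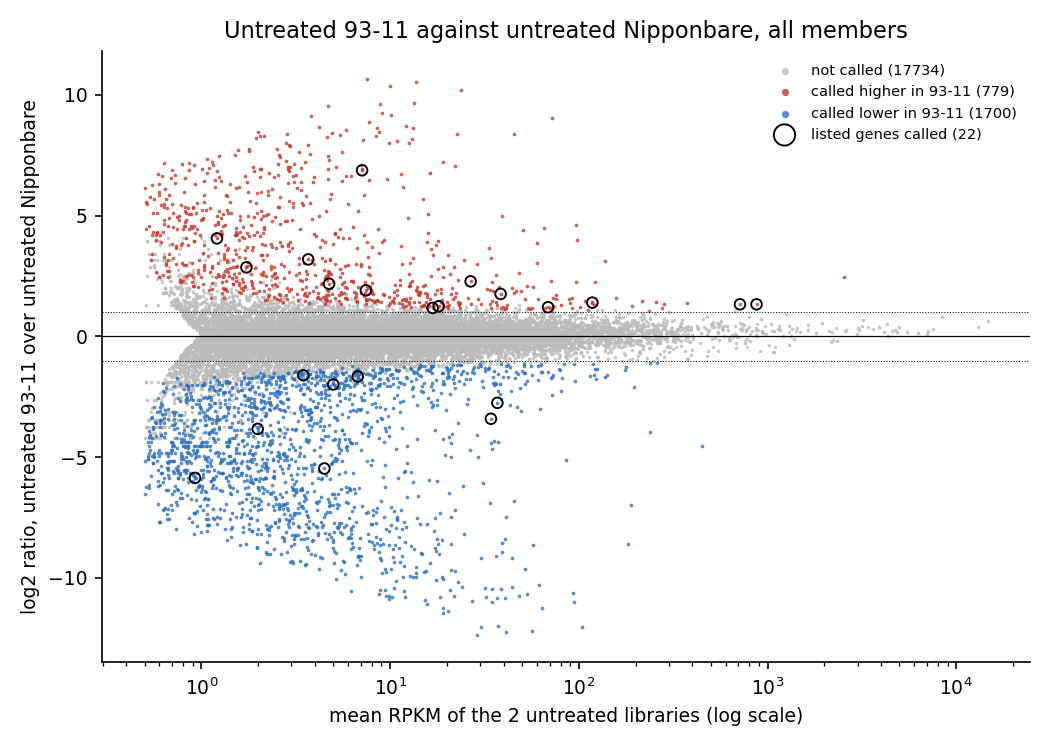
Log2 ratio of untreated 93-11 over untreated Nipponbare (vertical axis, 0.5 reads added) against the mean RPKM of both untreated libraries (horizontal axis, log scale) for the 20213 members. Each point is a gene, the dotted lines mark 2-fold, and the 22 ringed genes are those of the named gene lists that were called. Called genes are spread on both sides at low levels. Few lie above 100 RPKM, where members are also few (847).

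The share of genes called depended on their level. Among the 1119 members with a mean of at most 1 RPKM, 10.9% were called higher and 24.4% lower. Between 5 and 20 RPKM the shares were 2.65% and 5.67% of 7351 members. Between 20 and 100 RPKM they were 1.93% and 3.59% of 4239 members. Above 100 RPKM they were 2.24% and 2.13% of 847 members, 19 genes higher and 18 lower in 93-11. Members at or below 1 RPKM had a median of 26 reads over both libraries against 7913 above 100 RPKM, and the low group holds by the membership rule only genes with unequal levels. Called genes had shorter models than members as a whole, with median lengths of 1404 bases for the higher, 1390 bases for the lower and 1621 bases for all members.

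Genes with a checked name on lists of hormone, stress, defence, transport and photosynthesis genes gave 22 calls in 361 members (6.09%), 14 higher and 8 lower, against the 12.3% of all members. With the values as deposited 12 were higher and 13 lower, so the lean to the higher side depends on the scaling. Among the 277 of them with a mean of at least 5 RPKM, 4.69% were called, against 7.10% of all 12437 members at that level. The median log2 ratio over all listed members was 0.09, against -0.02 over all members. With loci of unchecked name included, the calls were 19 higher and 10 lower in 447 members. The plot of list members shows most genes within 2-fold, with 1 to 4 called genes in each of 13 lists.

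**Figure D2:**
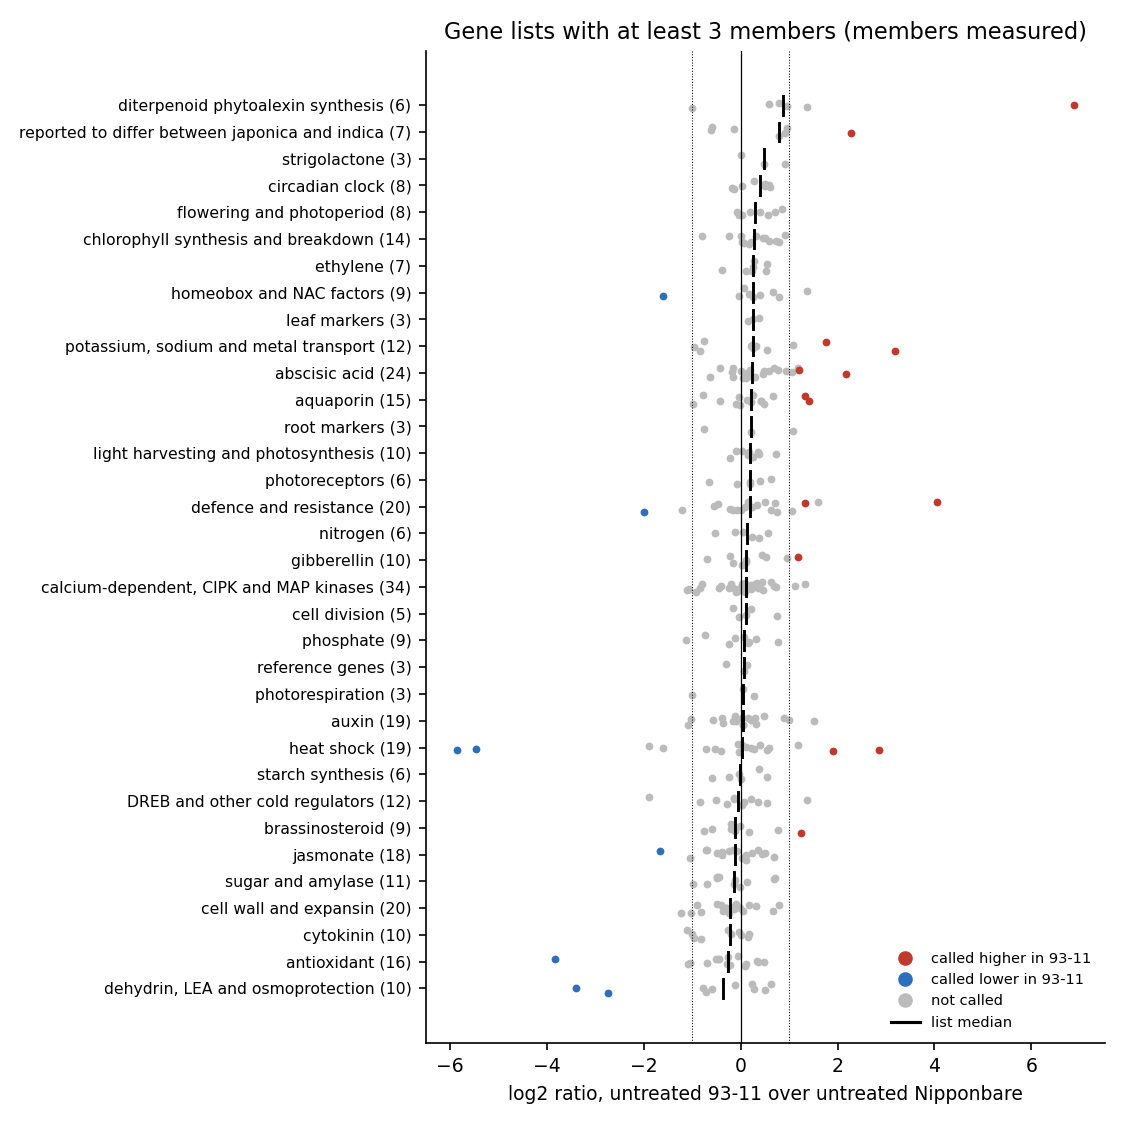
Log2 ratio of untreated 93-11 over untreated Nipponbare (horizontal axis) for every member of each gene list with at least 3 members (rows, number of members in brackets). Points are genes, coloured where the whole counting interval lay beyond 2-fold (dotted lines), and black bars are list medians; no list has more than 4 called points.

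In the abscisic acid list, which covers the synthesis, breakdown and signalling of this stress hormone, 2 of 24 members were called higher in 93-11, 0 lower and 22 in neither direction (median 0.23). ABA8ox1 (LOC_Os02g47470), whose product 8′-hydroxylates abscisic acid and so starts its breakdown, had 7.70 RPKM in 93-11 untreated and 1.80 RPKM in Nipponbare untreated. That is a log2 ratio of 2.18 with a counting interval of 1.76 to 2.65. In the chilled libraries the same gene reached 184 RPKM in 93-11 and 26.2 RPKM in Nipponbare (log2 ratio 2.87), so 93-11 was the higher in both conditions. SAPK5 (LOC_Os04g59450) encodes a protein kinase of the SnRK2 family, which acts downstream of osmotic stress. SAPK5 had 94.0 RPKM in 93-11 untreated against 43.4 RPKM in Nipponbare untreated, a log2 ratio of 1.21 (1.09 to 1.32). Its chilled levels were nearly equal, 48.0 RPKM in 93-11 and 53.7 RPKM in Nipponbare. The best expressed uncalled genes of the pathway were ZEP and PP2C06. ZEP, zeaxanthin epoxidase of abscisic acid synthesis, had 225 RPKM in 93-11 and 208 RPKM in Nipponbare, and the protein phosphatase gene PP2C06 had 95.5 and 74.1 RPKM in the same order.

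Among genes of checked name, the other hormone lists held at most 1 call each. With loci of unchecked name included, the gibberellin list had 2 higher and 1 lower call in 13 members. Its log2 ratios then ran from -1.7 to 4.52. In the brassinosteroid list 1 of 9 members was called, BAK1 (LOC_Os08g07760), the co-receptor kinase that pairs with the brassinosteroid receptor and with immune receptors. It had 25.0 RPKM in 93-11 untreated and 11.2 RPKM in Nipponbare untreated (log2 ratio 1.25, interval 1.08 to 1.42), and 37.2 against 15.5 RPKM in the chilled libraries; the untreated call was lost with the values as deposited (1.16). The receptor gene BRI1 itself had 18 RPKM in 93-11 and 22.1 RPKM in Nipponbare. In the gibberellin list 1 of 10 members was called: KS1 (LOC_Os04g52230), the ent-kaurene synthase of gibberellin synthesis, had 22.8 RPKM in 93-11 against 10.8 RPKM in Nipponbare (1.18, interval 1.01 to 1.35), a call at the edge of the rule that was lost with the values as deposited (1.08). GA20ox2, the semi-dwarf gene of gibberellin synthesis, had 9.09 RPKM in 93-11 and 4.99 RPKM in Nipponbare (0.95, interval 0.61 to 1.31) and was not called.

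In the jasmonate list 1 of 18 members was called. TIFY11C (LOC_Os03g08320), a JAZ repressor of jasmonate signalling, had 3.07 RPKM in 93-11 untreated and 10.4 RPKM in Nipponbare untreated, a log2 ratio of -1.66 (-2.09 to -1.26). Its reads cannot be separated from those of near-identical family members with certainty. Of the jasmonate genes not called, TIFY10B had 124 RPKM in 93-11 and 141 RPKM in Nipponbare. None of the 19 auxin, 10 cytokinin, 7 ethylene or 3 strigolactone members was called. RR2 (LOC_Os02g35180), a type-A response regulator gene of cytokinin signalling, came nearest by the near end of its interval, with 31.1 RPKM in 93-11 untreated against 71.2 RPKM in Nipponbare untreated (-1.1, interval -1.22 to -0.98). It was called lower in the chilled pair (-1.85). The cytokinin-activating gene LOG had 108 RPKM in 93-11 against 230 RPKM in Nipponbare (-1.0, interval -1.07 to -0.93). D14, the strigolactone receptor gene, had 208 RPKM in 93-11 against 118 RPKM in Nipponbare (0.91).

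Most genes of proteins that protect dehydrating cells were not called. Among 10 members of the dehydrin, LEA and osmoprotection list 2 were called, both lower in 93-11, where 8.41% of all members were called lower. The list median was -0.36, and 4 of the 10 ratios lay above 0. LEA3-1 (LOC_Os05g46480), a late embryogenesis abundant protein gene, had 5.54 RPKM in 93-11 untreated and 62.9 RPKM in Nipponbare untreated, a log2 ratio of -3.41 (-3.73 to -3.11). RAB16A (LOC_Os11g26790), a dehydrin gene induced by abscisic acid, had 9.04 RPKM in 93-11 untreated and 65.0 RPKM in Nipponbare untreated (-2.75, interval -2.99 to -2.52). Both were higher in untreated Nipponbare than in any of the other 3 libraries: chilled 93-11 and chilled Nipponbare had 1.51 and 3.87 RPKM of LEA3-1 and 0.382 and 0.737 RPKM of RAB16A. RAB16A has near-identical neighbours in the genome, so its value as a single gene is uncertain. The membrane protein genes Lti6b and Lti6a were not called, at 271 and 170 RPKM in 93-11 against 246 and 150 RPKM in Nipponbare.

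Among 16 antioxidant genes 1 was called. APX5 (LOC_Os12g07830), an ascorbate peroxidase gene, had 0.226 RPKM in 93-11 untreated and 3.75 RPKM in Nipponbare untreated, from 5 and 63 reads, a log2 ratio of -3.83 (-5.63 to -2.66). The abundant hydrogen peroxide-removing enzymes were not called: the catalase gene CATA had 421 RPKM in 93-11 and 607 RPKM in Nipponbare (-0.44), and APX8 had 385 and 324 RPKM in that order.

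Heat shock genes split in direction. Of 19 members 2 were called higher and 2 lower, and the list median was 0.02. HSP101 (LOC_Os05g44340), a chaperone that dissolves protein aggregates, had 3.03 RPKM in 93-11 untreated and 0.435 RPKM in Nipponbare untreated (2.86, interval 2.19 to 3.68). The transcription factor gene HsfC2a (LOC_Os02g13800) had 11.6 RPKM in 93-11 against 3.29 RPKM in Nipponbare (1.91, interval 1.52 to 2.34). After chilling both pairs of values drew together, 7.28 against 6.57 RPKM for HSP101 and 55.8 against 52.7 RPKM for HsfC2a. The 2 genes called lower encode small heat shock proteins. HSP18.0 (LOC_Os01g08860) had 0.151 RPKM in 93-11 untreated and 8.82 RPKM in Nipponbare untreated, from 2 and 89 reads (-5.47, interval -8.85 to -3.88). HSP18.1 (LOC_Os03g16030) had 0 reads in 93-11 untreated and 23 in Nipponbare untreated, and 0 against 3 reads in the chilled pair. With the 0 set to 3 reads its untreated level was 9.47-fold lower in 93-11. The near end of its counting interval was a log2 ratio of -2.83. Other small heat shock genes were not called, among them HSP17.7 at 3.62 RPKM in 93-11 and 11.8 RPKM in Nipponbare (-1.60, interval -2.29 to -0.98) and HSP17.9A at 3.25 and 2.96 RPKM (0.22). HSP18.1, HSP17.7 and HSP17.9A have nearby locus numbers on chromosome 3, and HSP18.0 is on chromosome 1. Reads may be shared among similar copies, which was not tested. CLPC1, a plastid chaperone gene, had 156 RPKM in 93-11 and 164 RPKM in Nipponbare.

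Defence genes included calls in both directions. Of 20 members of the defence and resistance list 2 were called higher and 1 lower (median 0.19). With loci of unchecked name included, 5 of 28 members were called higher and 1 lower. Pi21 (LOC_Os04g32850), a proline-rich protein gene whose loss-of-function allele gives partial blast resistance, had 1003 RPKM in 93-11 untreated and 425 RPKM in Nipponbare untreated (1.33, interval 1.29 to 1.37). The chitinase gene CHT2 (LOC_Os05g33130) had 2.3 RPKM in 93-11 and 0.119 RPKM in Nipponbare, from 51 and 2 reads (4.06, interval 2.44 to 7.45). CHT1 (LOC_Os06g51060), another chitinase gene, had 1.90 RPKM in 93-11 against 8.09 RPKM in Nipponbare (-1.99, interval -2.53 to -1.49). The chitinase genes thus differed in opposite directions. PAL, phenylalanine ammonia-lyase at the entry to phenylpropanoid synthesis, had 544 RPKM in 93-11 and 809 RPKM in Nipponbare and was not called.

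The largest ratio among listed genes was in diterpenoid phytoalexin synthesis. KSL7 (LOC_Os02g36140), a diterpene synthase gene of the phytocassane branch in the gene cluster on chromosome 2, had 14.1 RPKM in 93-11 untreated and 0.110 RPKM in Nipponbare untreated. These levels rest on 507 and 3 reads, and the log2 ratio was 6.88 (5.54 to 9.38). Chilled 93-11 had 22.2 RPKM against 0.0345 RPKM in chilled Nipponbare, 622 against 1 read. The other cluster genes on that chromosome had smaller ratios: CPS2, which makes the diphosphate precursor, had 2.90 RPKM in 93-11 and 1.59 RPKM in Nipponbare (0.96), CYP71Z6 had 9.57 and 6.79 RPKM (0.58) and KSL5 had 2.84 and 1.74 RPKM (0.79). KSL6 ran the other way, with 0.837 RPKM in 93-11 and 1.80 RPKM in Nipponbare (-1.01). None of these 4 was called, and 1 of 6 members of the list was.

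Most genes of the water and metal transport lists were not called. Of 15 aquaporin members 2 were called higher in 93-11 and 0 lower (median 0.22), where 12.3% of all members were called. The ratios of 6 aquaporin members lay below 0. PIP2;7 (LOC_Os09g36930), a plasma membrane aquaporin gene, had 1227 RPKM in 93-11 untreated and 521 RPKM in Nipponbare untreated (1.33, interval 1.29 to 1.36). PIP1;3 (LOC_Os02g57720) had 168 RPKM in 93-11 against 67.9 RPKM in Nipponbare (1.4, interval 1.31 to 1.49). Other abundant aquaporins were not called. PIP1;1 had 603 RPKM in 93-11 and 648 RPKM in Nipponbare (-0.01), PIP1;2 had 583 and 444 RPKM (0.49), and the vacuolar aquaporin gene TIP1;1 had 383 and 257 RPKM (0.67, interval 0.61 to 0.73). In the list of potassium, sodium and metal transport 2 of 12 members were called, both higher in 93-11, and 3 ratios lay below 0. NRAMP1 (LOC_Os07g15460), a divalent metal transporter gene, had 6.61 RPKM in 93-11 untreated and 0.754 RPKM in Nipponbare untreated, from 231 and 20 reads (3.19, interval 2.57 to 3.96). NAAT1 (LOC_Os02g20360), the nicotianamine aminotransferase of phytosiderophore synthesis, had 58.6 RPKM in 93-11 against 18.4 RPKM in Nipponbare (1.76, interval 1.60 to 1.92).

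Regulators of cold signalling gave no call in the untreated pair. None of the 12 members of the DREB and cold regulator list was called (median -0.05): NAC6 had 91.3 RPKM in 93-11 and 93.3 RPKM in Nipponbare, and MYBS3 had 101 and 73.6 RPKM. DREB1C, a CBF-type activator of cold-responsive genes, had 0.319 RPKM in 93-11 and 1.33 RPKM in Nipponbare (-1.89), with an interval of -3.58 to -0.59 that does not lie beyond 2-fold. None of 34 calcium-dependent, CIPK and MAP kinase genes was called. Of 9 homeobox and NAC factors 1 was called: HOX24 (LOC_Os02g43330), a homeodomain-leucine zipper factor gene, had 1.62 RPKM in 93-11 and 5.32 RPKM in Nipponbare (-1.61, interval -2.23 to -1.05), and this call was lost with upper quartile factors (-1.53) and median of ratios (-1.56).

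Photosynthesis, chlorophyll and clock genes gave no call, with log2 ratios between -0.80 and 0.92. None of 10 light harvesting and photosynthesis genes was called (median 0.20), and the Rubisco activase gene RCA had 14368 RPKM in 93-11 and 11763 RPKM in Nipponbare. Chlorophyll genes gave 0 calls in 14 members, of which 12 had a log2 ratio above 0 (median 0.27): PORA, protochlorophyllide reductase, had 1457 RPKM in 93-11 and 1250 RPKM in Nipponbare. The 8 clock genes had a median of 0.39 and no call, with the morning gene LHY at 843 RPKM in 93-11 and 629 RPKM in Nipponbare. Cell wall genes leaned to the lower side, with 15 of 20 ratios below 0 and no call, among them the secondary wall cellulose synthase genes CESA4 (37.5 RPKM in 93-11 against 81.5 RPKM in Nipponbare, -1.03) and CESA7 (43.9 against 87.9 RPKM, -0.91). The other scalings moved every untreated log2 ratio by between -0.09 and 0.08, so the signs of list medians nearer 0 than this depend on the scaling.

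The remaining lists held no called member, and the values below are those of their most abundant genes, not of whole lists. The lowest ratios among them were -1.13 for PT8 in the phosphate list, -1.0 for GLO3 in photorespiration and -0.98 for SWEET13 in the sugar list. GLO3, a glycolate oxidase gene, had 8.35 RPKM in 93-11 and 17.8 RPKM in Nipponbare. In nitrogen assimilation the plastid glutamine synthetase gene GS2 had 1476 RPKM in 93-11 and 1341 RPKM in Nipponbare. The glutamate synthase gene Fd-GOGAT had 471 RPKM in 93-11 and 489 RPKM in Nipponbare. Both supply ammonium assimilation in the leaf, and both ratios lay within 0.23 log2 units of 0. The photorespiratory glycolate oxidase genes GLO1 and GLO5 had 853 and 818 RPKM in 93-11, against 881 and 720 RPKM in Nipponbare. AGPS2, a subunit of the ADP-glucose pyrophosphorylase of starch synthesis, had 168 RPKM in 93-11 against 122 RPKM in Nipponbare (0.55). The blue light receptor gene PHOT2 had 270 RPKM in 93-11 and 185 RPKM in Nipponbare (0.63), while the phytochrome gene phyC had 17.8 and 20 RPKM in that order. CHS1, chalcone synthase at the entry to flavonoid synthesis, had 343 RPKM in 93-11 and 415 RPKM in Nipponbare (-0.18). In phosphate signalling SPX1 had 30.1 RPKM in 93-11 and 25.9 RPKM in Nipponbare, and its partner PHR2, the transcription factor of phosphate starvation, had 25.0 and 29.0 RPKM. The cyclin-dependent kinase gene CDKA;1 had 13.2 RPKM in 93-11 and 12.1 RPKM in Nipponbare. The sucrose transporter gene SUT2 had 65.1 RPKM in 93-11 and 76.1 RPKM in Nipponbare, and the sugar exporter gene SWEET4 had 63.1 and 91.2 RPKM (-0.44). MADS56, a flowering regulator, had 86.9 RPKM in 93-11 against 62.7 RPKM in Nipponbare (0.56). For the genes in these sentences other than GLO3, PT8 and SWEET13 both ends of the interval lay within 2-fold.

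The 10 genes reported in the field to differ between japonica and indica formed a list of their own, chosen for that reason, and 7 were members. LTG1 (LOC_Os02g40860), a casein kinase I gene of growth at low temperature, was the 1 gene called: it had 43.8 RPKM in 93-11 untreated and 9.62 RPKM in Nipponbare untreated, from 1755 and 293 reads (2.28, interval 2.10 to 2.46). The difference was larger in the chilled libraries, 65.4 RPKM in 93-11 against 6.29 RPKM in Nipponbare (3.43). COLD1, a G-protein signalling regulator of chilling tolerance, had 12.5 RPKM in 93-11 and 14.7 RPKM in Nipponbare (-0.13, interval -0.32 to 0.06). The stay-green gene SGR had 38.5 RPKM in 93-11 and 21.6 RPKM in Nipponbare (0.92, interval 0.76 to 1.09) and was not called.

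**Figure D3:**
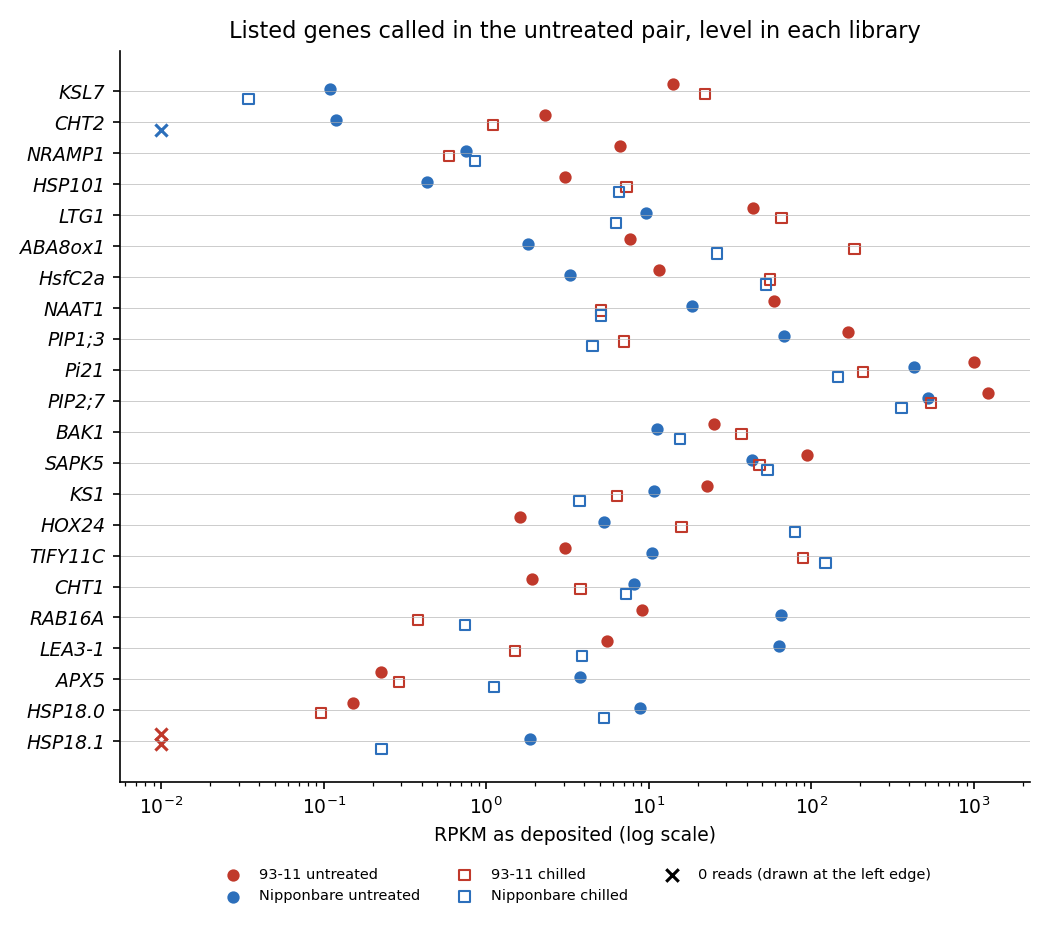
RPKM as deposited (horizontal axis, log scale) of the 22 listed genes called in the untreated pair (rows, ordered by their untreated log2 ratio), with 1 point for each library. Red is 93-11 and blue is Nipponbare, filled circles are untreated and open squares chilled, and crosses at the left edge are libraries with 0 reads; LEA3-1 and RAB16A stand out as high in untreated Nipponbare alone.

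The chilled pair holds other libraries of the same cultivars and shares none with the untreated pair, so it shows which untreated differences were met again in a second pair. In it 16.6% of 19086 genes were called, 7.84% higher and 8.78% lower in 93-11, so that 47.2% of calls were higher. This balance depended on the scaling and on the rule for a call. Scaled to the reference genes, which shifts chilled log2 ratios by 0.21, the counts were 2012 higher and 1410 lower (58.8% higher). With at least 1 RPKM in both libraries they were 817 and 585 (58.3% higher), and by the point ratio 2856 and 2744 (51% higher). Of the 779 genes higher in untreated 93-11, 414 (53.1%) were also called higher in chilled 93-11, 9 were called lower, and 725 had a ratio above 0. Of the 1700 genes lower in untreated 93-11, 979 (57.6%) were also called lower when chilled, 11 were called higher, and 1538 had a ratio below 0. Genes without reads in either chilled library count here as a ratio above 0. At least 1 chilled read was found for 769 of the higher and 1673 of the lower genes. Over all members 6.37% were called higher and 7.46% lower in the chilled pair. The untreated and chilled ratios differed by more than 2-fold, by the interval of their difference, in few of these genes: the ratio was smaller in size when chilled in 73 higher and 186 lower genes, and larger in 23 of each. These intervals are wide near 0 reads, so the genes not counted are not shown to have equal ratios. Because the genes were chosen by their untreated ratio, smaller chilled ratios can follow from the choice, and its part was not tested. The median log2 ratio was 2.61 in the chilled pair for the higher genes and -3.06 for the lower ones, or 1.92 and -2.31 with a library at 0 set to 3 reads.

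Of the 22 listed genes called in the untreated pair, 20 had the same sign in the chilled pair, and 7 were called the same way there: KSL7, CHT2, LTG1, ABA8ox1 and BAK1 higher and HOX24 and HSP18.0 lower in 93-11. LTG1 had an untreated log2 ratio below its chilled one by 1.16 (interval of the difference, untreated minus chilled, -1.43 to -0.88). For other genes the chilled ratio was nearer to 0, which the choice by untreated ratio can also give. NRAMP1 had a chilled log2 ratio of -0.46 (interval -1.49 to 0.50) against 3.19 untreated, a difference of 3.65 (2.54 to 4.77). HSP101 differed by 2.65 (1.92 to 3.38), HsfC2a by 1.76 (1.35 to 2.18), NAAT1 by 1.70 (1.29 to 2.11) and SAPK5 by 1.31 (1.14 to 1.48). LEA3-1 differed by -2.12 (-2.90 to -1.35), with fewer reads in both chilled libraries than in Nipponbare untreated. These are differences between single libraries, with no replicate check.

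**Figure D4:**
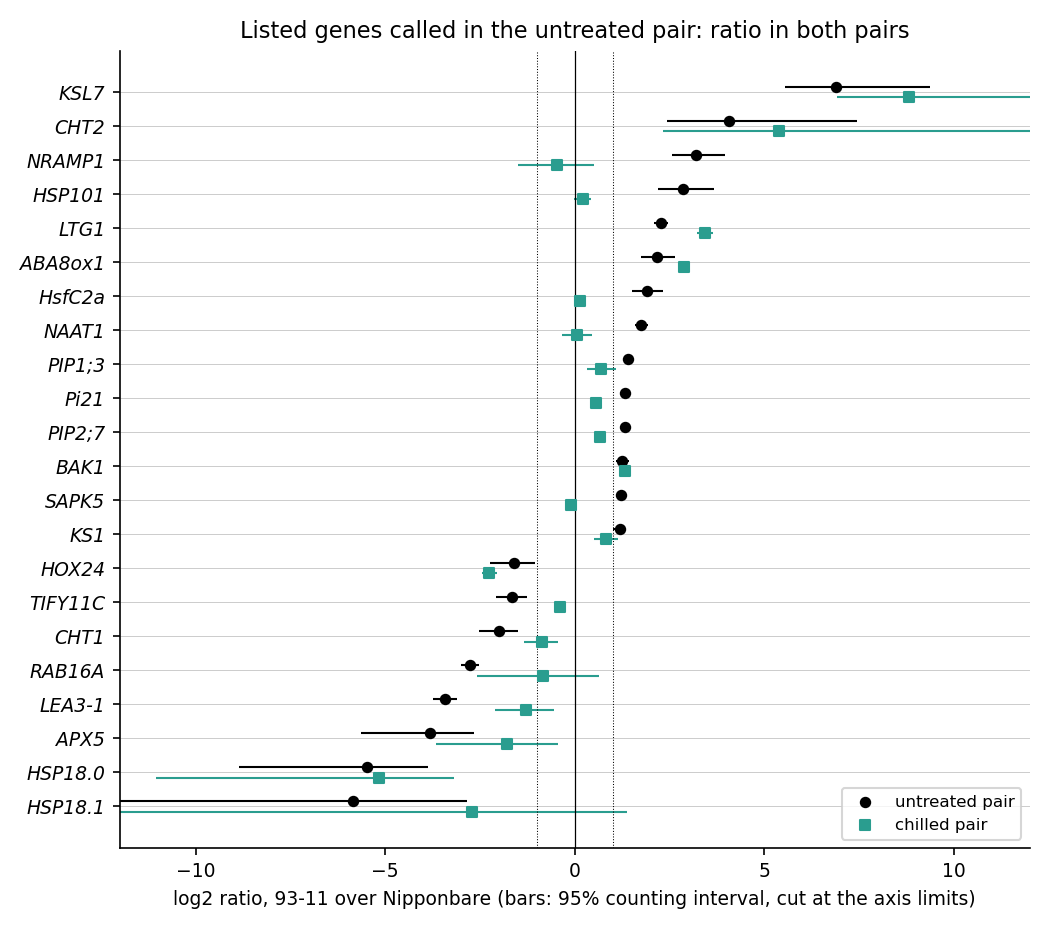
Log2 ratio of 93-11 over Nipponbare (horizontal axis) in the untreated pair (black circles) and in the chilled pair (green squares) for the 22 listed genes called in the untreated pair. Bars are 95% counting intervals, cut at the axis limits, and dotted lines mark 2-fold; KSL7, CHT2, LTG1, ABA8ox1 and BAK1 lie beyond 2-fold in both pairs, while NRAMP1 and SAPK5 fall on opposite sides of 0.

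A fit over all 4 libraries offers the one test of a cultivar difference, since a term for treatment leaves 1 residual degree of freedom. It tests a difference shared by both conditions, so it does not test the untreated pair alone. The error of a gene comes from the disagreement between its untreated and chilled ratios, as no library has a replicate. A cultivar difference that depends on treatment therefore counts as error. Of 19466 genes tested by limma, 305 (1.57%) were higher and 762 (3.91%) lower in 93-11 at an adjusted p under 0.05, 5.48% in all. Among the higher genes of the untreated pair 581 were tested and 281 passed as higher, and among the lower genes 1258 were tested and 731 passed as lower. The untreated libraries that chose these genes are part of the fit, so these shares are no independent check. The same holds for the called list genes below. Of the 22 called list genes 6 passed, on the log2(RPKM + 1) scale: KSL7 (4.17 ± 0.34, limma adjusted p = 0.00787), HSP18.0 (-2.77 ± 0.27, adjusted p = 0.0106), LTG1 (2.70 ± 0.32, adjusted p = 0.0161), ABA8ox1 (2.25 ± 0.33, adjusted p = 0.0282), BAK1 (1.22 ± 0.21, adjusted p = 0.0429) and CHT2 (1.34 ± 0.24, adjusted p = 0.0471). RR2, not called in the untreated pair, passed as the only other listed gene (-1.33 ± 0.24, adjusted p = 0.0485). HOX24, called in both pairs, had -1.68 ± 0.32 and an adjusted p of 0.0543. The errors are SE, and the calls rest largely on the spread that limma borrows from other genes. Without the treatment term no gene passed in limma, with 1226 at an unadjusted p under 0.05.

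Differences were not spread evenly over the chromosomes. On chromosome 11, 273 of 1097 members (24.9%) were called, 83 higher and 190 lower, against 11.5% of members on the other chromosomes. Chromosomes 12 and 10 followed with 17.2% and 16.6%, and chromosome 3 had the lowest share, 7.54% of 2626 members. In the chilled pair chromosome 11 again had the highest share (25.8%) and chromosome 3 the lowest (13.0%). Chromosome 11 members were also less deeply covered, with a median of 219 reads over both untreated libraries against 505 on chromosome 3. Among members with a mean of at least 5 RPKM, a limit added after the data were seen, 15.9% of 540 were called on chromosome 11 and 4.91% of 1794 on chromosome 3, with median reads of 712 and 844. By the cultivar term over 4 libraries 11.0% of tested genes passed on chromosome 11 and 3.41% on chromosome 3.

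**Figure D5:**
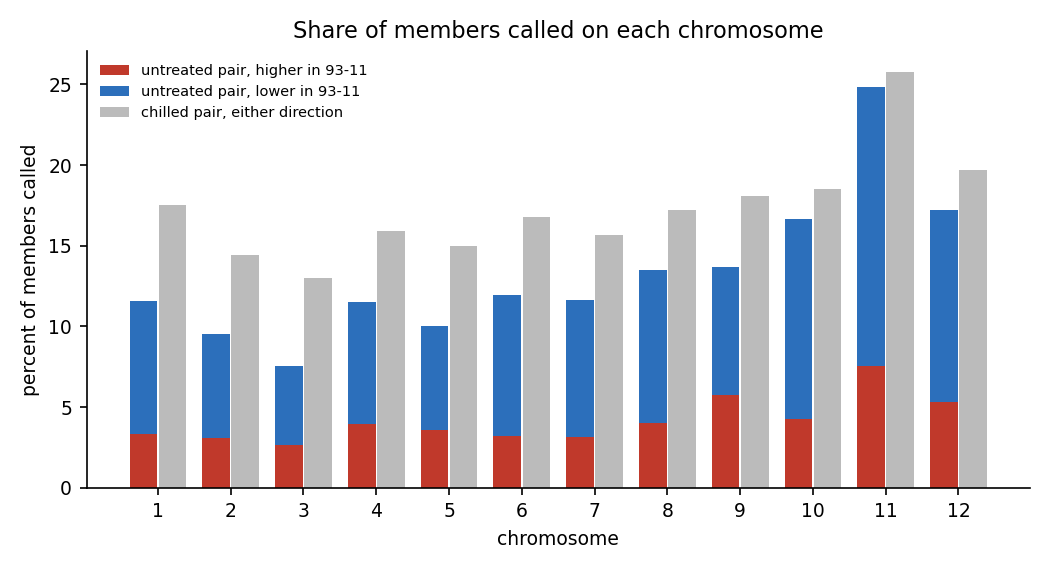
Percent of members called (vertical axis) on each of the 12 chromosomes (horizontal axis). The coloured bars are the untreated pair, split into genes higher (red) and lower (blue) in 93-11, and the grey bars are the chilled pair in either direction; chromosome 11 is highest and chromosome 3 lowest in both.

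Called genes also lay next to each other. With members placed in the order of their locus numbers, 43.4% of genes lower in 93-11 had another lower gene as a direct neighbour, against 12.6% of the other members. For genes higher in 93-11 the share was 22.7% against 6.85%. There were 44 unbroken runs of at least 4 neighbouring members called the same way, 41 of them lower and 3 higher in 93-11, with 206 genes in all. Chromosomes 1 and 11 held 7 runs each, and chromosome 3 none. The longest run was 8 genes on chromosome 11, which together had 57 reads in 93-11 untreated and 2256 in Nipponbare untreated. In the chilled libraries the same 8 genes had 91 reads in 93-11 and 1592 in Nipponbare, and all 8 ratios were again below 0. The longest run on the higher side, 6 genes, lay on chromosome 11 as well. It had 926 reads in 93-11 untreated and 1 in Nipponbare untreated, and 215 against 4 in the chilled pair. A run of 6 lower genes on chromosome 1 had the most reads of those with 6 or more genes, 11 in 93-11 untreated and 6871 in Nipponbare untreated. Over all runs, 187 of the 206 genes had the same sign in the chilled pair and 127 were called the same way there. Genes without chilled reads count here as a ratio above 0. Whether members of a run are copies of one another, which would share reads, was not tested.

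The most extreme single ratios were in genes without a checked name. Restricted to genes called the same way in both pairs with at least 1 read in the lower untreated library, the largest higher ratios were those of LOC_Os03g17410 and LOC_Os09g10340. The first had 1074 reads in 93-11 untreated and 1 in Nipponbare untreated (9.18, interval 7.28 to 15.07), and 2791 against 0 in the chilled pair. LOC_Os09g10340 had 2289 and 3 reads (9.05, interval 7.72 to 11.55), or 144 and 0.248 RPKM, and 247 against 0 reads when chilled. On the lower side, LOC_Os02g40240 had 1 read in 93-11 untreated and 5718 in Nipponbare untreated (-12.20, interval -18.09 to -10.31), and 1 against 2989 when chilled. LOC_Os12g13674 had 1 and 5124 reads (-12.04, interval -17.93 to -10.15), or 0.0307 and 207 RPKM, and 1 against 2643 reads when chilled. Each of the 4 thus had at most 3 reads in the lower library of either pair.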

How the data were processed

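The deposited values are RPKM per gene identifier, 1 library per cultivar and treatment; the unit is read from the values. Per the labels' protocols, oligo(dT)-selected RNA was sequenced on a HiSeq instrument. The submitters' processing notes name TopHat2 2.0.9, Bowtie2 2.0.6 and HTSeq 0.5.4p3 without saying what each did. The genome build, the annotation and the use of strand were not given in these sources, and reads of overlapping or antisense genes cannot be told apart.

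Whole reads were recovered from the deposited RPKM: for all 36941 genes above 0 in any library, 1 whole gene length and 1 library total per library made every value a whole number of reads, within 0.55 units of the last written digit. With the totals shifted by 1 percent, 9 of 200 genes could be solved. Recovered reads sum to between 97.7 and 98.1 percent of the totals and may be off by a common whole factor per gene. Totals were scaled by trimmed mean of M-values factors (1.05 for 93-11 untreated and 1.12 for Nipponbare untreated; trim 0.3 of ratios and 0.05 of intensities). Log2 ratios have 0.5 reads added. Their 95% intervals are exact conditional binomial (Clopper-Pearson) intervals, and those of differences between pairs are Wald intervals. Intervals and the floor of 3 reads cover counting error only, because each group is 1 library. Copies made by PCR are not separate molecules, so the intervals may be too narrow even for that error. With 1 library a group no test exists for the untreated pair alone, and the ratios are given without one. The cultivar term was fitted with limma (version 3.58.1, R 4.3.3, intensity trend) to log2(scaled RPKM + 1), with cultivar and treatment as terms, over genes reaching 1 RPKM in 2 or more libraries, adjusted by Benjamini-Hochberg. The prior of limma is worth 4.13 degrees of freedom. The 1 residual degree of freedom is the disagreement between the untreated and chilled cultivar ratios, not a spread between replicates. The p-values hold for these pools only. The steps were tested on simulated data. Python 3.11.15, numpy 2.4.6 and scipy 1.17.1 were used.

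The members and the gene lists were chosen with earlier results of these data known. Lists were extended after ratios of the first lists had been seen, and the locus of 1 ethylene gene was corrected after its value was seen, so list counts are descriptions. Names rest on general knowledge and were used only where the RefSeq gene table (assembly ASM3414082v1) places the symbol on the same chromosome, in the same gene order and within 1000000 bases of the place interpolated from other genes, which held for 445 loci; 102 were not in the table and 17 lay on another chromosome. This order cannot separate immediate neighbours. Named are the called members of checked name, the uncalled members of highest level in a list, and, of genes without a checked name, the extreme ratios in each direction among those called the same way in both pairs with at least 50 reads in the higher untreated library and at least 1 in the lower. RR2, HSP17.7, HSP17.9A, TIP1;1, GLO3, PT8, SWEET13, DREB1C, GA20ox2, CESA4, CESA7, CPS2, KSL6 and the runs were named after their values were seen. No sequences are shown.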

Additional observations from a re-analysis of the deposited data

Results flagged for a closer look

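SAPK5 and NRAMP1 were singled out because 93-11 stood on opposite sides of Nipponbare in the untreated and the chilled pair; the difference between conditions was not tested, since each group is 1 library. NRAMP1 had an untreated log2 ratio of 3.19 and a chilled one of -0.46, and SAPK5 had 1.21 and -0.10. Both chilled intervals include 0, so neither gene is shown to be lower in chilled 93-11.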

How the results depend on the processing

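No paired analysis was possible because each group is 1 library and the labels carry no replicate numbers; the cultivar term compares the cultivars within treatments through its treatment term, not through replicates. Calls in the untreated pair numbered 779 higher and 1700 lower; they were 423 and 893 with at least 5 RPKM in either library, 303 and 418 with at least 1 RPKM in both, 354 and 1045 with the interval beyond 4-fold, 1458 and 2738 by the point ratio, and 1417 and 2658 by the difference of log2(RPKM + 0.1). Of the calls, 42.0% were higher with at least 1 RPKM in both libraries, against 31.4% by the main rule. In the chilled pair the counts were 1496 and 1676; they were 930 and 989, 817 and 585, 489 and 897, and 2856 and 2744 under the first 4 of these settings. Scaled to reference genes the chilled counts were 2012 and 1410, so the balance of higher against lower turned. It also turned with at least 1 RPKM in both libraries and by the point ratio. Listed genes called numbered 14 higher and 8 lower. They were 12 and 13 with the values as deposited. The lower count was 5 with at least 1 RPKM in both, and 13 by log2(RPKM + 1). Higher and lower were 5 and 5 beyond 4-fold, 25 and 24 by the point ratio, and 25 and 22 by log2(RPKM + 0.1). In limma the cultivar term gave 305 higher and 762 lower genes; with no filter 107 and 342 passed, and without the treatment term 0 and 0, with 341 and 885 at an unadjusted p under 0.05. The construction of each setting accounts for fewer or more genes tested; other causes were not tested. For 26 single genes under the 6 settings that change a ratio, 136 of 156 values stayed inside the counting interval and 20 left it. No sign could change, because all 26 had been chosen as called genes. The scalings moved untreated log2 ratios only by between -0.09 and 0.08, and added RPKM only draws ratios towards 0. Chromosome 11 kept a higher share called than the other chromosomes under all settings run, from 7.88% against 4.09% (at least 1 RPKM in both) to 34.4% against 20% (point ratio). Depth limits the low genes: at or below 1 RPKM a gene had a median of 26 reads over both untreated libraries.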
